A study of Arabidopsis thaliana with 24 samples.

Results

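The transcripts described here were those lowered most by light in Arabidopsis thaliana seedlings, among transcripts that were abundant in the dark. A probe set, the group of probes on the array that reports 1 transcript, was included when its mean log2 signal over the 12 dark arrays was at least 9 and its mean log2 signal over the 12 light arrays was lower by 2.5 or more. Of 22746 probe sets, 6225 had a dark mean of at least 9, 68 met both conditions, and 64 remained after ASN1, AKINBETA1, SEN1 and BT2 were set aside by name. A gene could be named for 42 of the 64, and the other 22 are given by their probe set identifiers. Because the light change chose the members, it is described here without a test, whereas nitrogen and genotype did not enter the choice and were tested.

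Signal was measured on 24 Affymetrix ATH1 arrays, 3 for each of 8 groups, with RNA of whole seedlings. The 3 arrays of a group came from independent experiments, and the study ran all treatments and both genotypes in 3 such experiments, so the 24 arrays share them. The mutant bzip1-1 carries a T-DNA insertion in the only exon of bZIP1, a transcription factor gene, in the Col-0 background and is a single line. WT-sib is a sibling line without the insertion. All seedlings grew for 14 days on 0.5 mM KNO3 and 3 mM sucrose at 22 °C, in days of 16 h light and 8 h darkness. The light intensity was 50 μE per square metre and second. At the start of a light period they were treated for 2 h with 20 mM KNO3 and 20 mM NH4NO3 (N+) or with KCl in their place (N-), in light (L+) or under foil (L-). The 8 groups were therefore bzip1-1 and WT-sib under N+L+, N-L+, N+L- and N-L-. In whole seedlings, fewer cells of a type and less RNA per cell cannot be told apart.

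The values are signal intensities that the authors computed with MAS 5.0, and the mean signal of each array without its lowest and highest 2% was 500. The median signal of an array lay between 182 and 216, and the number of arrays limits the precision of each value. No table used here names the probe set of bZIP1, so the mutant could not be checked by name. Probe set 248606_at, which is unnamed and no member, had the lowest genotype change of all probe sets and was looked at after its values were seen. On the N-L+ arrays of replicate 1 its signal was 471 in bzip1-1 and 56.5 in WT-sib, against 68.6 to 123 on the other bzip1-1 light arrays and 519 to 6034 on the other WT-sib light arrays. These 2 arrays thus went against their labels for this probe set, and the genotype terms and the values split by genotype in light are also given without them. Of the markers of plant parts, RCA, an activator of the carbon-fixing enzyme in leaves, and the root genes PYK10, EXPA7 and EXPA18 were named on the array, and none of the 4 passed the test for light, nitrogen or genotype.

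Seedlings that are kept dark through the start of the day run short of the sugars that photosynthesis would supply. Arabidopsis then accumulates transcripts for breaking down amino acids, lipids and cell wall sugars and for importing hexoses, and many of these transcripts fall again when light or sugar returns. The kinase SnRK1 is a central sensor of low energy, and the bZIP transcription factors of groups C and S1, to which bZIP1 belongs, act downstream of it.

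Among the 64 members, the light change (mean log2 signal in L+ minus that in L-) had a median of -2.93 and ran from -5.45 to -2.51. On 57 of the 64, every light array lay below every dark array, which was so for 1.98% of all probe sets, and this count restates the rule. The geometric mean signal ran from 25.2 to 3502 in light and from 525 to 21716 in the dark. All 64 stood above the array median on all 12 dark arrays, and 13 stood below it on all 6 N-L+ arrays. The members thus ranged from transcripts far below the array median in light to transcripts that were still bright there. Just inside the threshold were 266072_at at -2.53, WRI4 at -2.52 and 250007_at at -2.51, and just outside were AT3G26510 at -2.496, 258856_at at -2.49 and AT4G12690 at -2.48. AT5G51390 had the lowest dark mean inside, at 9.04, and AT5G44260, with a light change of -4.27, missed the set with a dark mean of 8.75.

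**Figure D1:**
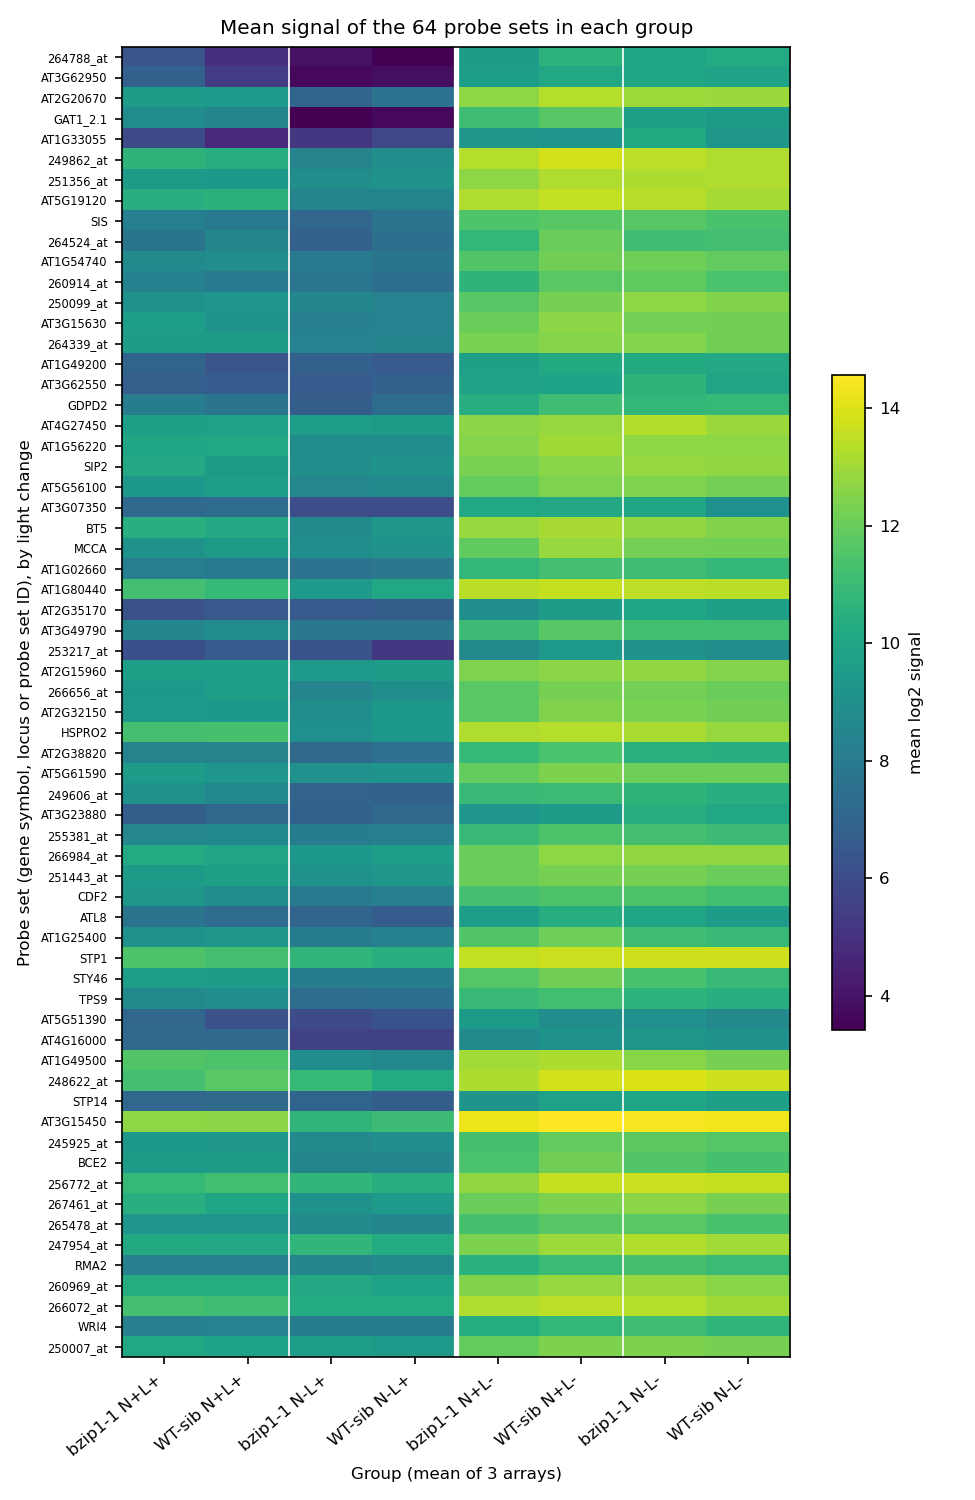
Mean log2 signal of the 64 probe sets (rows, ordered by light change, by gene symbol, locus or probe set identifier) in the 8 groups of 3 arrays (columns), with the colour scale at the right in log2 signal. The 4 light columns are darker than the 4 dark columns in every row, and the N-L+ columns are the darkest for most members.

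The light change lowest in log2 signal belonged to the unnamed 264788_at, with a lowest, median and highest signal of 4.51, 26.8 and 119 in light, against 388, 1246 and 2655 in the dark. AT3G62950, which encodes a protein of the glutaredoxin family, had 3.69, 40.01 and 296 in light, against 597, 845 and 1889 in the dark. AT2G20670, of a family of unknown function termed DUF506, had 80.2, 345 and 1846 in light, against 5297, 8537 and 12886 in the dark. For these 3 members the light and dark arrays did not overlap, and the dark mean was 43.7-fold, 30.9-fold and 23.5-fold above the light mean in that order. Detection calls were not used. Every light signal of 264788_at lay below the lowest array median of 182. So did the median light signal of AT3G62950, although its highest, 296, lay above every array median. These folds therefore depend on how low signals are treated. With 32 added to every signal they were 17.1-fold, 12.1-fold and 20.9-fold, and AT2G20670 then had the lowest light change of the 64. GAT1_2.1, a glutamine amidotransferase-like protein gene, had 9.07, 101 and 842 in light, against 381, 1605 and 4989 in the dark. The light and dark arrays of GAT1_2.1 overlapped, since its brightest light arrays were N+ arrays and its dimmest dark arrays were N- arrays. AT1G33055, a small protein gene known from the response to low oxygen, had 14.7, 48.5 and 119 in light, against 438, 660 and 1385 in the dark.

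Members that handle sugars were STP1, a hexose symporter of the plasma membrane, STP14, a galactose transporter, SIP2, an alpha-galactosidase that acts on raffinose, and TPS9, a class II trehalose-phosphate synthase. Their light changes lay between -3.18 and -2.64. STP1 was the brightest of the 4, with 981, 2271 and 3322 in light, against 10224, 12909 and 19670 in the dark. SIP2 had 313, 781 and 1763 in light, against 4029, 6548 and 10466 in the dark.

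Amino acid breakdown was represented by MCCA, a subunit of the carboxylase in leucine breakdown, and BCE2, the E2 subunit of the branched-chain keto acid dehydrogenase. MCCA had 300, 626 and 1287 in light, against 1605, 5228 and 13950 in the dark, and BCE2 had 300, 512 and 1086 in light, against 1812, 3058 and 8250 in the dark. The hydrolases AT5G19120 (aspartyl protease family), GDPD2 (a glycerophosphodiester phosphodiesterase), AT1G02660 (a plastid lipase) and AT2G32150 (haloacid dehalogenase family) had light changes between -3.82 and -2.90. AT5G19120 had 291, 653 and 2698 in light, against 6067, 10591 and 14461 in the dark, with no overlap.

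Among regulators, BT5 is a BTB and TAZ domain protein, CDF2 represses the flowering gene CONSTANS, AT5G61590 is an ethylene response factor that lowers wax synthesis in darkness, and WRI4 is an AP2 factor of cuticular wax synthesis. Their light changes lay between -3.15 and -2.52. Subunits or relatives of ubiquitin ligases were AT1G80440, a kelch F-box protein, AT3G23880, another F-box protein, and the RING proteins ATL8, RMA2 and AT1G49200, with light changes between -3.37 and -2.54. AT1G80440 was one of the brightest members, with 457, 1264 and 4616 in light, against 9194, 10553 and 15208 in the dark. HSPRO2, which binds a subunit of SnRK1, and STY46, a kinase of chloroplast transit peptides, had light changes of -2.90 and -2.67.

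The brightest member of all was AT3G15450, of the aluminium-induced YGL/LRDR family, with 973, 3677 and 11900 in light, against 17671, 21279 and 31302 in the dark. Its relative AT4G27450 had a light change of -3.24, as had AT1G56220, of the dormancy and auxin associated family. SIS, a serine-rich gene known from salt stress, had a light change of -3.81, and AT3G62550, which resembles universal stress proteins, had -3.34. No 2 members with a locus were neighbours, and the closest pair, AT3G15450 and AT3G15630, had 21 protein-coding genes between them.

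The light change differed between N+ and N- in its median over the members. Its median over the members was -2.38 in bzip1-1 and -2.83 in WT-sib with N+, and -3.46 in bzip1-1 and -3.20 in WT-sib with N-. Without replicate 1 of N-L+ in both genotypes the medians with N- were -3.45 in bzip1-1 and -3.11 in WT-sib. Over both genotypes the median was -2.66 with N+ and -3.30 with N-. For each member, the light change with N+ minus that with N- is the interaction of light and nitrogen tested below. It is no separate result. The light change was negative for all 64 members in each of the 4 combinations and within each replicate number. Its medians were -2.93, -3.12 and -2.72 for numbers 1, 2 and 3.

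The members lay on different sides of their own means by light, and within light they lay higher with N+ than with N-. The median deviation of the members from their means over the 24 arrays was -1.16, -1.36 and -0.57 on the bzip1-1 N+L+ arrays and -1.63, -1.34 and -0.47 on the WT-sib N+L+ arrays. It was -2.05, -1.99 and -1.79 on the bzip1-1 N-L+ arrays and -2.06, -1.98 and -1.69 on the WT-sib N-L+ arrays. The 6 N+L+ arrays thus all stood above the 6 N-L+ arrays, and the N+L+ arrays of replicate 3 were the highest light arrays in both genotypes. In the dark it was 0.91, 1.21 and 1.80 (bzip1-1) and 1.41, 2.20 and 1.60 (WT-sib) with N+, and 1.56, 1.72 and 1.55 (bzip1-1) and 1.39, 1.18 and 1.82 (WT-sib) with N-. These dark ranges overlapped between N+ and N-.

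**Figure D2:**
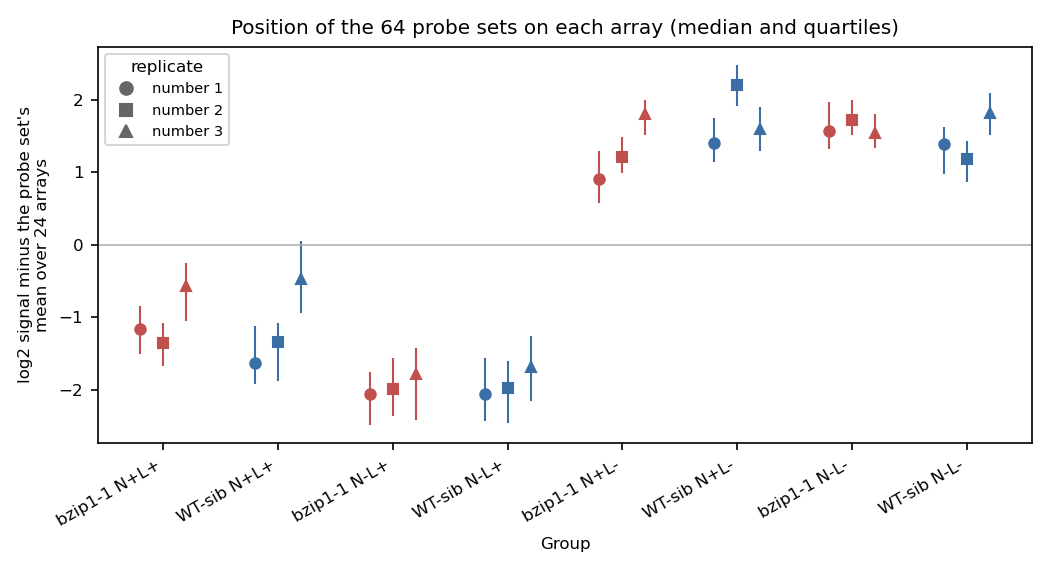
Median (symbol) and quartiles (bars) over the 64 probe sets of log2 signal minus each probe set's mean over the 24 arrays, for every array in the 8 groups, with bzip1-1 in red, WT-sib in blue and the replicate number as the symbol. The N+L+ medians run from -1.63 to -0.47, above the N-L+ medians of -2.06 to -1.69, whereas the dark medians overlap between N+ and N-.

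Nitrogen supply raised a subset of the members and lowered none that passed the test. The nitrogen effect (N) was the mean log2 signal of N+ minus that of N- over light states and genotypes, tested with limma at an adjusted p of 0.05, the adjustment being that of Benjamini-Hochberg across the 22746 probe sets. The fit did not use the replicate number. Statements that a member passed or did not pass refer to this fit unless another setting is named. By this test 12 of the 64 members were higher and 0 were lower, whereas 0.699% of all probe sets were higher and 0.255% were lower. The median N effect was 0.35 over the members and -0.04 over all probe sets tested. The N effect was above 0 for 54 of the 64 members and for 41.8% of all probe sets.

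Within light the same contrast was larger. N+L+ minus N-L+ had a median of 0.79 over the members and -0.07 over all probe sets, and it was above 0 for 57 of the 64 members and for 40.2% of all probe sets. In light 12 members were higher with N+ and 0 were lower, against 0.572% and 0.0835% of all probe sets. With the replicate number as a block, 26 members passed in light and 19 for N, against 305 and 416 of all 22746 probe sets higher. The 6 N+L+ arrays all lay above the 6 N-L+ arrays for 15 members, and for 0.849% of all probe sets, and the reverse held for 0 members and for 0.497% of all probe sets. Of the 13 members called in either of the 2 contrasts, 11 were called in both, AT1G25400 was called only over both light states and AT3G15630 only in light. Plain ANOVA with the 3 factors and products of the study's methods was run on the linear signal, without the filter on detection calls of those methods, which do not state the scale. It called 1 member for N, AT1G49500, after Benjamini-Hochberg adjustment, and 6 at the unadjusted threshold of the methods. Of all 22746 probe sets it called 126 higher and 61 lower after adjustment, and 798 passed the unadjusted threshold. For N in light, which is not a term of that model, the same fit called 0 members after adjustment, against 104 higher and 42 lower of all probe sets.

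The nitrogen change in light was largest for GAT1_2.1. Its signal was 757, 179 and 677 in bzip1-1 and 351, 181 and 842 in WT-sib with N+L+, against 9.38, 11.8 and 11.1 in bzip1-1 and 22.4, 10.3 and 9.07 in WT-sib with N-L+. In the dark its lowest, median and highest signals were 864, 3254 and 4989 with N+, against 381, 605 and 2257 with N-. The light groups did not overlap, the dark groups did, and every N-L+ array lay far below the array median. The log2 change with N was 5.14 in light (SE 0.52, adjusted p = 7.91e-06, limma) and 3.45 over both light states (SE 0.37, adjusted p = 2.32e-05). With an offset of 32 added before taking log2, the change in light was 3.35, and the call held. In the dark the log2 change of GAT1_2.1 was 1.77 (SE 0.52, adjusted p = 0.43), the largest of the members there, but it did not pass.

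AT1G49500, whose product has no known role, had 2864, 2164 and 4219 in bzip1-1 and 2313, 2206 and 4522 in WT-sib with N+L+. With N-L+ it had 423, 403 and 607 in bzip1-1 and 198, 537 and 579 in WT-sib. The 2 light groups were far apart in both genotypes. Its log2 change with N was 2.76 in light (SE 0.26, adjusted p = 4.25e-06) and 1.72 over both light states (SE 0.19, adjusted p = 2.64e-05). In the dark it had 6887, 8941 and 11824 (lowest, median, highest) with N+, against 3606, 5776 and 6970 with N-, and the groups overlapped slightly.

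AT5G19120, the aspartyl protease family gene, had 1584, 810 and 2239 in bzip1-1 and 1156, 1152 and 2698 in WT-sib with N+L+. With N-L+ it had 389, 326 and 353 in bzip1-1 and 295, 291 and 495 in WT-sib. The lowest N+L+ array thus stood above the highest N-L+ array. Its log2 change with N in light was 2.07 (SE 0.24, adjusted p = 5.39e-05), and in the dark it was 0.17 (SE 0.24, adjusted p = 1.00). Dark arrays gave 8593, 10799 and 14461 with N+ and 6067, 10170 and 11880 with N-, and they overlapped over most of their range.

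**Figure D3:**
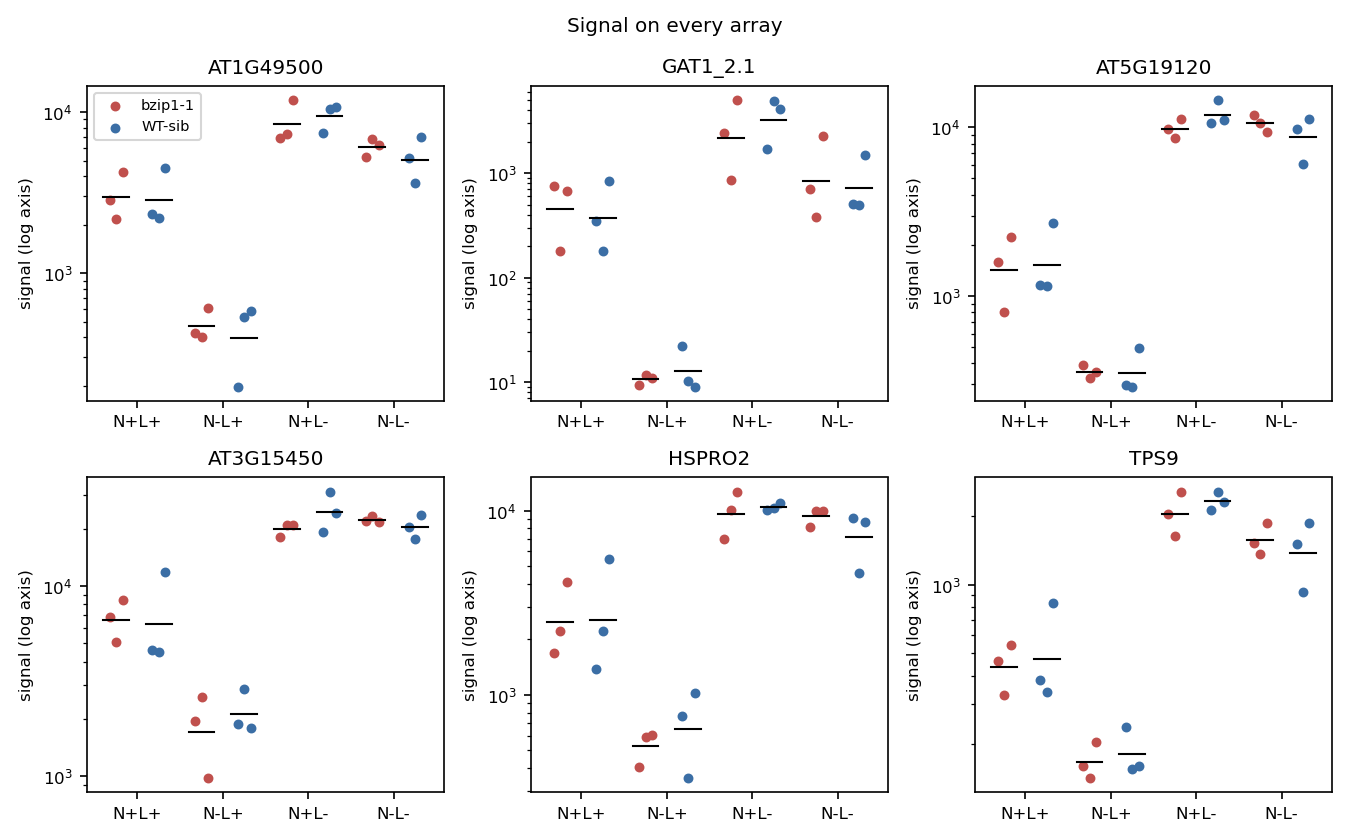
Signal (log axis) on all 24 arrays for 6 of the members called for nitrogen in light, by treatment, with bzip1-1 in red left of WT-sib in blue and a line at the geometric mean of 3 arrays. In each panel the 6 N+L+ arrays lie above the 6 N-L+ arrays, while the N+L- and N-L- arrays overlap.

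The SnRK1 partner HSPRO2 and the kinase STY46 both rose with nitrogen. HSPRO2 had 1377, 2219 and 5477 (lowest, median, highest) with N+L+, against 353, 598 and 1026 with N-L+, a log2 change of 2.11 (SE 0.31, adjusted p = 0.00069). STY46 had 487, 762 and 1295 with N+L+, against 236, 270 and 350 with N-L+, a log2 change of 1.45 (SE 0.26, adjusted p = 0.0070). Neither member's light groups overlapped. In the dark the log2 changes were 0.30 (SE 0.31) for HSPRO2 and 0.76 (SE 0.26) for STY46, and neither passed.

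TPS9 was the sugar-related member that rose. It had 330, 422 and 829 with N+L+, against 142, 161 and 239 with N-L+, a log2 change of 1.39 (SE 0.21, adjusted p = 0.0014). The transporters and SIP2 did not pass, with log2 changes in light of 0.82 (SE 0.21, adjusted p = 0.081) for STP1, 0.79 (SE 0.32, adjusted p = 0.47) for SIP2 and 0.37 (SE 0.31, adjusted p = 0.85) for STP14.

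AT3G15450 had 4501, 5949 and 11900 with N+L+, against 973, 1915 and 2853 with N-L+, a log2 change of 1.76 (SE 0.25, adjusted p = 0.00047). Its dark values were 18058, 20927 and 31302 with N+ and 17671, 21756 and 23757 with N-, almost the same range. Its relative AT4G27450 had a log2 change in light of 0.23, which did not pass, so the 2 YGL/LRDR members gave different outcomes of the test, and the difference between them was not tested.

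Of the 3 DUF506 members, AT2G20670 and AT3G07350 rose. AT2G20670 had 358, 629 and 1846 with N+L+, against 80.2, 158 and 331 with N-L+, a log2 change of 2.14 (SE 0.37, adjusted p = 0.0037). AT3G07350 had 116, 150 and 208 with N+L+, against 47.8, 66.0 and 91.5 with N-L+, a log2 change of 1.23 (SE 0.24, adjusted p = 0.012). The groups were apart for both, but every N-L+ array of AT3G07350 lay below the array median. For AT2G38820, the other DUF506 member, the log2 change in light was 0.96 (SE 0.37, adjusted p = 0.42).

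The unnamed 249606_at had 337, 477 and 707 with N+L+, against 87.8, 112 and 180 with N-L+, a log2 change of 1.98 (SE 0.24, adjusted p = 9.07e-05). Its N-L+ arrays all lay below the array median. The unnamed 249862_at had 744, 1291 and 3099 with N+L+, against 310, 386 and 635 with N-L+, a log2 change of 1.84 (SE 0.30, adjusted p = 0.0024). AT3G15630 had 342, 720 and 1302 with N+L+, against 214, 327 and 449 with N-L+, a log2 change of 1.11 (SE 0.24, adjusted p = 0.032). The first 2 of these showed no overlap, but AT3G15630 did, and its call was lost in 8 of the 24 fits that left out 1 array, with an adjusted p of up to 0.11. These arrays were N-L+ replicates 1, 2 and 3 and N+L+ replicate 1 of bzip1-1, and N-L+ replicates 2 and 3 and N+L+ replicates 1 and 3 of WT-sib. AT1G25400 had log2 changes of 1.03 in light (SE 0.31), 0.82 in the dark (SE 0.31) and 0.92 over both (SE 0.22, adjusted p = 0.042), and the last call was lost in 17 of the 24 fits (adjusted p up to 0.089), as was that of AT2G20670 over both light states (adjusted p up to 0.082).

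When N+L+ and N-L+ arrays of the same genotype and replicate number were set side by side, N+ was higher in 6 of 6 such pairs for each of the called members but AT3G15630, which was higher in 5 of 6. Except for AT1G25400 and AT3G15630, this had to be so, since the light groups of the called members did not overlap. The pairs thus describe the same arrays and add no support. For GAT1_2.1 the differences on the log2 scale ran from 3.93 to 6.54, and for AT1G49500 from 2.04 to 3.55.

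Several other members came near the threshold in light without passing in the fit without the replicate block. With the block 26 members passed in light, against 305 of all 22746 probe sets higher. The outcomes given next are those without it. AT1G80440, the kelch F-box gene, was at 1.32 in log2 (SE 0.31, adjusted p = 0.0502), a p just above the threshold. AT4G16000 had 1.66 (SE 0.40, adjusted p = 0.060), AT1G56220 had 1.13 (SE 0.28, adjusted p = 0.078), BCE2 had 1.03 (SE 0.26, adjusted p = 0.084) and BT5 had 1.27 (SE 0.35, adjusted p = 0.15). AT3G62950 and 264788_at had log2 changes of 2.38 and 1.94 with SEs of 0.81 and 0.61, and their dimmest light arrays were at 3.69 and 4.51. CDF2 had 0.97 (SE 0.27, adjusted p = 0.15). Values close to 0 in light were found for AT1G49200, AT3G62550 and AT3G23880, at -0.06, -0.02 and -0.07.

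In the dark 0 members passed for nitrogen, with 8 at an unadjusted p under 0.05, against 5.83% of all probe sets. Of all probe sets, 0.0572% were higher and 0.0132% were lower in the dark by the adjusted test. Under each of the alternatives 0 members passed as well. Few probe sets passed in any of them, the most with the replicate block, 72 higher and 33 lower of all 22746. The median N+L- minus N-L- change over the members was -0.01, as it was over all probe sets, with 32 members above 0 and 32 below, where 48.4% of all probe sets were above 0. No member had dark N+ arrays that were all above or all below the dark N- arrays, and 0.29% of all probe sets had them all above. The unadjusted p was smallest for GAT1_2.1, then STY46, then 250099_at, whose log2 change was -0.59 (SE 0.21, adjusted p = 0.62).

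The interaction L*N, the nitrogen change in light minus that in the dark, was above 0 for 64 of the 64 members and for 43.6% of all probe sets, with medians of 0.74 over the members and -0.05 over all probe sets. By limma 2 members passed, AT5G19120 at 1.90 (SE 0.34) and AT1G49500 at 2.08 (SE 0.37), both at an adjusted p of 0.050, against 0.0396% of all probe sets. Both calls sat at the threshold, and they were lost in 20 and 19 of the 24 fits without 1 array, for AT5G19120 and AT1G49500 in that order, with adjusted p-values of up to 0.12 and 0.13. A call for AT1G49500 was kept without WT-sib N-L- replicate 2, WT-sib N-L+ replicate 1 or 3, bzip1-1 N+L- replicate 3 or bzip1-1 N+L+ replicate 2, and the same holds for AT5G19120 except for bzip1-1 N+L- replicate 3. Without replicate 1 of N-L+ in both genotypes, AT1G49500 still passed (1.79) and AT5G19120 did not (1.87), and L*N was above 0 for 58 of the 64 members. AT3G15450 had 1.72 (SE 0.35, adjusted p = 0.12) and passed only with the replicate block (adjusted p = 0.0497). GAT1_2.1 had the largest value, 3.37 (SE 0.73, adjusted p = 0.17), and RMA2 had the smallest, 0.08. By replicate number the median over the members was 0.93, 0.19 and 1.26, with 62, 43 and 64 members above 0 for numbers 1, 2 and 3.

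These interactions are on the log2 scale. In linear signal the N+ minus N- difference had a median over the members of 230 in light and 43.4 in the dark, and it was above 0 for 58 members in light and 37 in the dark. The median over the members of mean signal was 695 with N+L+, 357 with N-L+, 4039 with N+L- and 3783 with N-L-. For AT1G49500 the interaction changed sign on the linear scale, to -825 signal units (adjusted p = 0.99 in the plain ANOVA), since its nitrogen difference was larger in signal units in the dark.

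**Figure D4:**
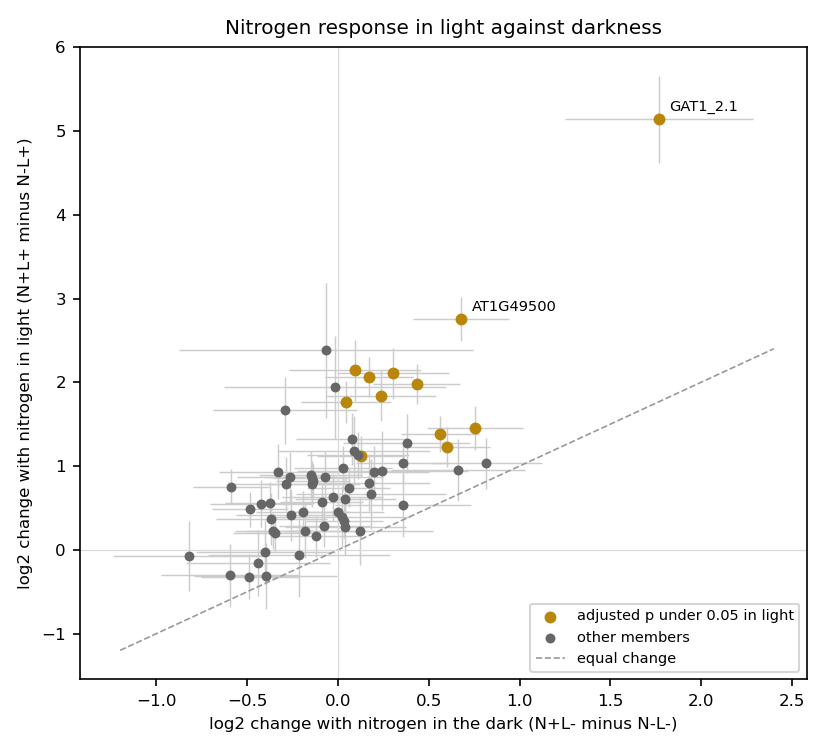
Nitrogen change of the 64 probe sets in light (vertical axis, N+L+ minus N-L+) against that in the dark (horizontal axis, N+L- minus N-L-), both in log2 with SE bars, with the 12 members called in light in gold and a dashed line where both are equal. All 64 points lie above the dashed line, and GAT1_2.1 stands apart at 5.14 in light and 1.77 in the dark.

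Across the 64 members, Spearman's rho was 0.68 between the nitrogen change in light and that in the dark, and -0.23 between the light change and the nitrogen change in light. The points share arrays and are not independent, and the values are given as a description. The set can also be placed beside probe sets chosen by a weaker light change. For the 153 other probe sets with a dark mean of at least 9 and a light change between -2.5 and -1.5, the median nitrogen change in light was 0.26, with 121 above 0, against 0.79 and 57 of 64 for the members. Their median L*N was 0.36, with 131 above 0. The 39 probe sets raised by 2.5 or more in light, with a light mean of at least 9, had median values of -0.12 for the nitrogen change in light and -0.23 for L*N. The differences between these sets were not tested.

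Gene lists for low-energy and nitrogen responses placed the called members among their relatives. The lists were drawn up with earlier results of these data known. Some genes were named only by the study's lists of genes regulated in these same arrays. Counts over such genes are therefore no independent support. This was so for all 3 named class II trehalose-phosphate synthases (7 listed), the 3 LBD repressors and all 3 named BTB and TAZ domain genes (5 listed). It was also so for the low-oxygen gene (4 listed), for 4 of the 6 dark-inducible and starvation genes (15 listed), and in part for other lists. Of 6 named dark-inducible and starvation genes, 1, the member AT3G15450, was higher with N. Of 9 named genes of branched-chain amino acid breakdown, including the members MCCA and BCE2, 0 passed for N or for N in light, with median N changes of 0.14 and 0.15. MCCA itself changed by 0.23 in light (SE 0.41). Of 3 class II trehalose-phosphate synthases, TPS9 and TPS10 were higher with N (0.97 and 0.71) and in light (1.39 and 0.94), and TPS6 did not pass. The repressors LBD37, LBD38 and LBD39, known for their response to nitrogen, were higher with N in light by 2.02, 1.17 and 2.26, and none was a member. Of 3 BTB and TAZ domain genes, BT2, left out of the set by name, was higher, and BT5 and BT3 did not pass. Among 5 clock genes, CDF2 included, 0 passed for N, as did 0 of 9 ATG8 autophagy genes and 0 of 3 SnRK1 subunit genes. Of 4 named bZIP genes of groups C and S1, bZIP53 was higher with N (0.76, SE 0.16, adjusted p = 0.024). The one low-oxygen gene with a name, the haemoglobin gene AHB1, was also higher with N (1.29, SE 0.21, adjusted p = 0.0024), while the member AT1G33055 had an N change of -0.30 (SE 0.28).

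No member differed between bzip1-1 and WT-sib by the adjusted test. For the genotype effect G (bzip1-1 minus WT-sib over all treatments), limma called 0 members higher and 0 lower, and 0 and 0.00879% of all probe sets. At an unadjusted p under 0.05 there was 1 member, against 3.3% of all probe sets. The median G was -0.05 over the members and 0.01 over all probe sets, and 22 members stood above 0, against 52.2% of all probe sets. In the dark, where the members were bright, 0 passed, against 0.0044% of all probe sets lower, and 0 had an unadjusted p under 0.05, against 2.63% of all probe sets, with a median of -0.14 and 46 of 64 below 0. The genotypes overlapped on every member in the dark and in light, as they did on all but 0.044% (bzip1-1 above) and 0.0396% (bzip1-1 below) of all probe sets in the dark, and 0.0528% and 0.0572% in light.

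The lowest genotype value belonged to the unnamed 264524_at. In the dark it had 701, 2524 and 2940 (lowest, median, highest) in bzip1-1, against 997, 3388 and 12181 in WT-sib, ranges that overlapped widely. Its G was -0.71 (SE 0.33, unadjusted p = 0.048, adjusted p = 1.00), and -0.74 without replicate 1 of N-L+ in both genotypes. AT5G51390 had the highest G, 0.41. HSPRO2, TPS9, STY46, AT5G19120, AT1G49500 and GAT1_2.1, all called for nitrogen, had G values between -0.09 and 0.10.

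The nitrogen and light responses also passed in no member as a difference between genotypes. N*G was the nitrogen change of bzip1-1 less the nitrogen change of WT-sib, L*G was likewise for the light change, and N*L*G was the value of N*G under L+ less its value under L-. For these 3 terms limma called 0 members and 0 of all probe sets. At an unadjusted p under 0.05 there were 2, 0 and 2 members for N*G, L*G and N*L*G, against 2.69%, 1.71% and 1.79% of all probe sets. Without replicate 1 of N-L+ in both genotypes the adjusted counts were again 0 for all 3, as for G. At an unadjusted p under 0.05 there were 3, 0 and 0 members, against 514, 437 and 489 of all 22746 probe sets. The lowest N*G was that of 253217_at, -1.25 (SE 0.39, adjusted p = 1.00), and the highest L*G was that of 264788_at, 1.64 (SE 0.87, adjusted p = 1.00), or 1.11 without those arrays.

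In its median over the members, the nitrogen change in light was alike in sign in both genotypes. Its median over the members was 0.82 in bzip1-1 and 0.77 in WT-sib, with 59 and 56 members above 0. In bzip1-1 8 members passed and in WT-sib 4, against 0.22% and 0.106% of all probe sets higher (0.0044% and 0.00879% lower), and the difference between the genotypes was tested as N*G in light alone. Limma called 0 members and 0 of all probe sets for it, with 2 members at an unadjusted p under 0.05, against 1.9% of all probe sets, and a median of 0.12 over the members. GAT1_2.1 changed by 5.40 in bzip1-1 and 4.88 in WT-sib, and AT1G49500 by 2.66 in bzip1-1 and 2.85 in WT-sib. Without replicate 1 of N-L+ in both genotypes the medians were 0.82 in bzip1-1 and 0.71 in WT-sib. Then 5 and 4 members passed, against 54 and 46 of all 22746 probe sets higher, and N*G in light again called 0. GAT1_2.1 then changed by 5.31 in bzip1-1 and 5.29 in WT-sib, and AT1G49500 by 2.59 in bzip1-1 and 2.35 in WT-sib.

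In the dark the nitrogen change had a median of -0.37 in bzip1-1, with 53 of 64 members below 0. In WT-sib it had a median of 0.26, with 53 of 64 above 0. Over all probe sets the medians were -0.0063 in bzip1-1 and -0.00077 in WT-sib. The members share arrays, so the counts by sign are a description. In either genotype 0 members passed, against 0.00879% of all probe sets higher in bzip1-1 and 0.0044% higher and 0.0044% lower in WT-sib. N*G in the dark alone called 0 members and 0 of all probe sets, with 3 members at an unadjusted p under 0.05, against 3% of all probe sets, and its median over the members was -0.67. By replicate number the bzip1-1 medians were -0.71, -0.47 and 0.20, with 57, 53 and 19 members below 0. The WT-sib medians were 0.10, 1.05 and -0.23, with 41, 63 and 19 members above 0. Number 3 thus ran the other way from numbers 1 and 2 in the order of the genotypes. N*L*G had a median of 0.84 over the members, was above 0 for 62 of them and for 49.8% of all probe sets, and had medians of 1.37, 1.64 and -0.41 for numbers 1, 2 and 3. Without replicate 1 of N-L+ in both genotypes its median was 0.85, with 61 above 0. The 153 probe sets with the weaker light change had a median N*L*G of 0.55, with 135 above 0.

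**Figure D5:**
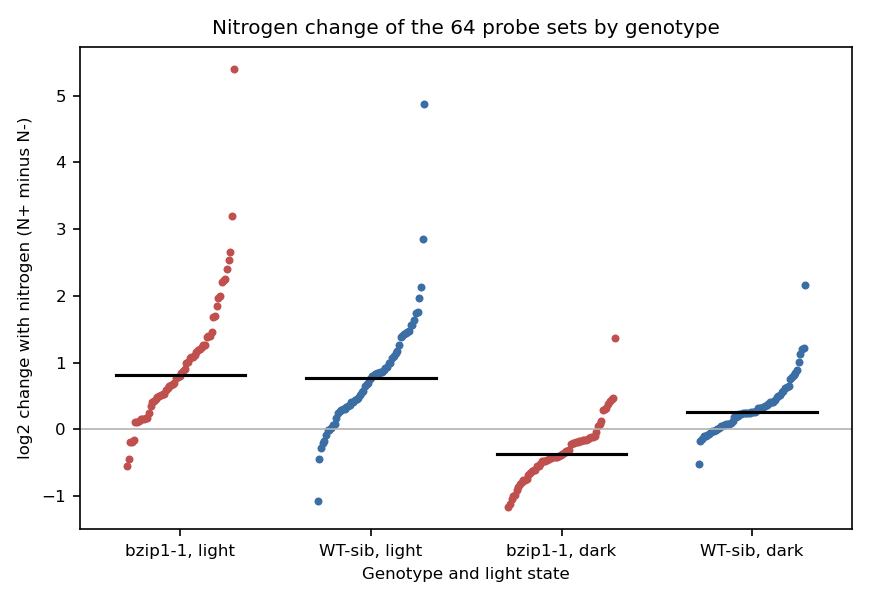
Nitrogen change (log2, N+ minus N-) of each of the 64 probe sets, ordered by value within a column, with a black line at the median, for bzip1-1 left of WT-sib, in light and in the dark. The medians are 0.82 and 0.77 in light, and -0.37 and 0.26 in the dark, for bzip1-1 and WT-sib in that order.

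AT1G33055 had the largest N*L*G. In light its signal was 67.7, 50.8 and 69.8 (bzip1-1) and 17.2, 14.7 and 81.2 (WT-sib) with N+, and 17.8, 43.9 and 63.1 (bzip1-1) and 119, 34.4 and 46.3 (WT-sib) with N-. In the dark it was 611, 609 and 704 (bzip1-1) and 616, 913 and 438 (WT-sib) with N+, and 1385, 1148 and 987 (bzip1-1) and 491, 520 and 1005 (WT-sib) with N-. The light arrays were dim and overlapped between all groups, and in the dark the N-L- arrays of bzip1-1 were the highest but for 1 WT-sib array. Its N*L*G was 2.67 (SE 1.12, unadjusted p = 0.027, adjusted p = 1.00), and 1.63 without replicate 1 of N-L+ in both genotypes.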

How the data were processed

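For each array the authors deposited signal intensity computed with MAS 5.0, not log transformed, without detection calls or pooling of replicates. Probe sets that the authors would have removed by detection call were kept here. The log2 of the signal, with nothing added, was fitted for 22746 probe sets, leaving out 64 controls, in limma 3.58.1 under R 4.3.3, the prior variance following a trend. The model had nitrogen, light, genotype and all products. P-values are two-sided, adjusted by the method of Benjamini and Hochberg. The fit was run on simulated data to check that added changes were estimated at about their size. The simulated noise was independent between arrays, unlike that of arrays from shared experiments, so the run is no check of the p-values. Python 3.11.15 drew the figures. Loci came from the platform's table (29 members) and the study's tables (13). Members, gene lists and tests were chosen with earlier results of these data known. Tests in light are given for the members that passed there, and for the other terms tests are given for a selection of members. Alternatives were a replicate block, plain ANOVA (log2 and linear signal), quantile normalization, equal array medians, 32 added before log2, removal of probe sets under the 40th percentile of mean signal, no trend, and each array left out in turn. The fit without replicate 1 of N-L+, and the terms N*G in light and in the dark with their alternatives, were chosen after seeing the data.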

Additional observations from a re-analysis of the deposited data

Results flagged for a closer look

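The nitrogen change in light exceeded that in the dark, by the test of the interaction itself, for AT5G19120, by 1.90 (SE 0.34) on the log2 scale, and for AT1G49500, by 2.08 (SE 0.37), each at an adjusted p of 0.050 by limma. Over the alternatives the adjusted p ran from 0.0043 to 1.00 for AT5G19120 and from 0.0014 to 0.99 for AT1G49500. The member passed in only 8 of 33 settings for AT5G19120 and in 10 of 33 for AT1G49500. On linear signal the value of AT1G49500 had the opposite sign (-825 signal units). No reason for the difference was tested.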

How the results depend on the processing

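The 3 experiments held all groups. No source used here says that a replicate number marks an experiment, so the main fit did not pair the arrays by number. The arrays did group by number, and the main fit leaves this out. Deviations of arrays with the same number correlated with a median r of 0.25 (lowest -0.07, 65 of 84 pairs over 0.1), against -0.08 for different numbers, and 23 of 24 arrays correlated best with their own number. With the replicate block the count of members called was 19 for N, 26 for N in light and 6 for L*N, all higher and including the 12, 12 and 2 called without it, and it changed no other count of members. Of all 22746 probe sets, 416, 305 and 36 were then higher, against 159, 130 and 9 without the block. Plain ANOVA on linear signal gave 1 for N and 0 for N in light, against 126 and 104 of all probe sets higher. It gave 0 for L*N, among members and among all probe sets, with AT1G49500 reversed (-825 signal units). The cause was not tested. L*N was also 0 with plain ANOVA on log2 signal, an offset of 32 and no trend, and 1 without replicate 1 of N-L+ in both genotypes. In these settings 1, 5, 1 and 28 of all probe sets were higher for L*N. Leaving out 1 array gave 10 to 13 members for N, 11 to 15 for N in light and 0 to 3 for L*N. Of all probe sets, 126 to 204, 89 to 159 and 1 to 26 were then higher, in that order. For the genotype terms and N in the dark the count was 0 in every alternative. Few of all 22746 probe sets passed there either. The most were called with the replicate block, 72 higher and 33 lower for N in the dark, and 2 higher and 5 lower for G. In N-L+, 13 members lay below the array median on all 6 arrays, and no detection calls were used. The highest N-L+ signals of GAT1_2.1, AT3G62950, AT3G07350 and 249606_at were 22.4, 117, 91.5 and 180, below the lowest array median of 182.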
